A study of Arabidopsis thaliana with 54 samples.

Results

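Wild-type *Arabidopsis thaliana* roots were compared after 120 min on medium with 100 nM CIF2 and after 120 min on medium without peptide. The comparison rests on 6 of the 54 libraries of the series, 3 with CIF2 and 3 without peptide, and each arm holds 1 library from each of 3 batches. The seedlings were of the Col-0 accession, were 5 days old, carried no mutation or transgene by their labels, and were moved on a mesh to fresh medium in both arms, so the untreated roots were handled in the same way. Whole roots were collected without the aerial parts. The other 48 libraries hold the same 2 arms of wild type at 30 and 480 min and of *cif1 cif2*, which is mutated in both peptide genes, and *sgn3*, which lacks a working receptor gene, at 30, 120 and 480 min. Of these, 3 *cif1 cif2* libraries at 480 min are titled as treated but labelled as without peptide, and they entered only the estimate of spread. All entered the same statistical model, and the wild-type roots at 30 and 480 min and both mutants at 120 min served to show where the response at 120 min differed. Wild-type roots make their own CIF peptides, so the comparison measures added peptide, and a whole root is a mixture in which the endodermis is a minor tissue. The labels give the batch of each library but not whether batches were separate sowings, so the p-values describe the spread between these samples.

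The endodermis is the cell layer that surrounds the vascular cylinder of the root. It seals its walls with the Casparian strip, a ring of lignin placed by CASP membrane proteins, dirigent proteins, peroxidases and the NADPH oxidase *RBOHF*, and later coats its surface with suberin, a polyester of long-chain fatty acids. CIF1 and CIF2 are sulfated peptides made in the stele. Their receptor is the kinase SGN3, which is also named *GSO1* and is found on both sides of the Casparian strip. The kinase SGN1 is found only on the cortex side. The peptides must therefore cross a strip that is still open to reach receptors next to SGN1. There the receptor acts through SGN1 and the oxidases until the barrier is closed. Receptors of this kinase family also detect microbial patterns, and their signalling is known for reactive oxygen, calcium and WRKY transcription factors.

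Between 26589034 and 37141287 reads were counted on genes in the 6 libraries, and 19668 genes had at least 1 CPM (the usual unit of read counts relative to library size, here with scaling between libraries) in at least 1 library of the series and were tested. A gene is said to have passed the test when its adjusted p in edgeR's quasi-likelihood test with the batch as a block was at most 0.05, and it is called when its log2 fold change was also at least 1 in size. After 120 min of CIF2, 291 genes were called, which is 1.48% of those tested, with 245 higher (1.25%) and 46 lower (0.234%). Without the fold threshold, 1239 genes rose (6.3%) and 841 fell (4.28%). In the gene lists below, genes that rose or fell are those past the adjusted p, and these 2 shares are the background of their counts. The lists were made with earlier results of these data known, so their shares are descriptions and not tests. Without the libraries of batch 1 the count of lower genes was 28, the only count of calls in this comparison that moved by more than 1.5 times when a batch or a library was left out. The inductions were larger as well as more frequent. The called genes that rose had a median log2 fold change of 1.43, and 183 of them changed by 2 to 4 times, 38 by 4 to 8 times and 24 by more. Of the genes that fell, whose median log2 fold change was -1.19, 42 changed by 2 to 4 times and 4 by more. The median over all genes tested was -0.0027, and 290 of the 291 called genes changed in the same direction in all 3 batches. For 287 of the 291, the 3 CIF2 libraries and the 3 untreated libraries did not overlap, against 20.6% of all genes tested. Both counts are favoured by the choice of genes, since the calls rest on the same libraries, and they are no separate support for the calls. Of the 291, 72 lie across from an annotated gene on the opposite strand and 5 overlap 1 on their own strand. In the 6 libraries, 0.308% to 0.432% of the reads were left out because they fell on more than 1 gene. The strand setting of the counting is not given in the sources used here, so how reads in such an overlap were assigned is uncertain. Of the genes described below this concerns *PP2-B13*, *MYB9*, *WRKY40*, *WRKY41*, *WRKY53*, *PUB23*, *CML12*, *CML45*, *ASFT*, *RBOHA*, *FLS2*, *FRK1*, *SARD1*, *CCR2*, *SKOR*, *OCT1*, *SWEET1*, *UMAMIT33*, *AAP3*, *COL1*, *COL2* and AT3G15518 for the opposite strand and *ZAT1* for the same strand, while the models of AT1G47130, *SKOR*, *LAC12*, *WRKY41* and *NIP4;2* are annotated as partial.

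**Figure D1:**
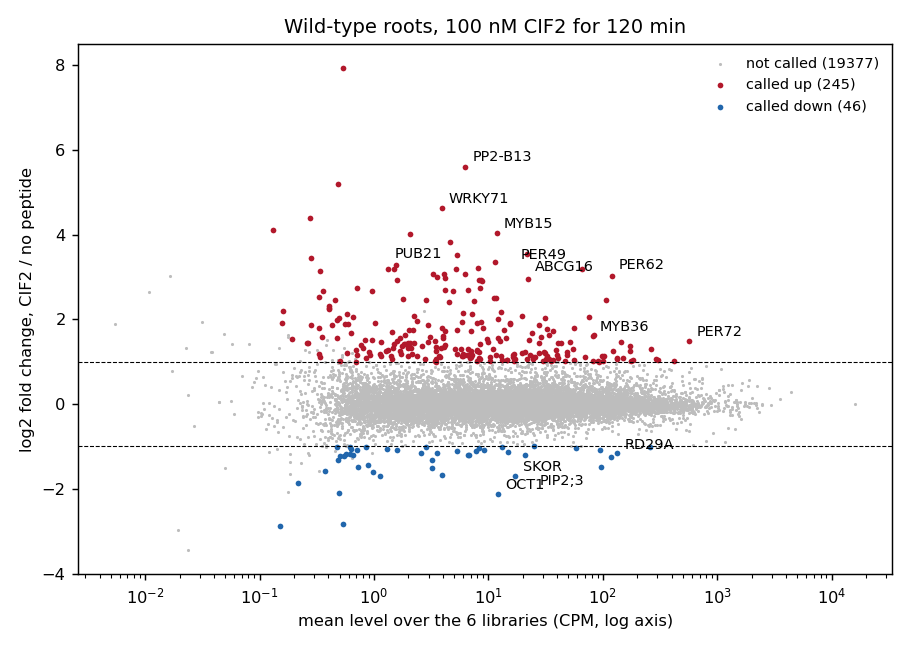
Log2 fold change of each tested gene (CIF2 against no peptide, wild type, 120 min) against its mean level over the 6 libraries in CPM, on a log axis, with the 245 called genes that rose in red, the 46 that fell in blue and all other genes in grey. The dashed lines mark a log2 fold change of 1 and -1, and red points are more numerous than blue ones and reach further from 0.

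The largest changes among genes with at least 5 CPM in the higher arm were inductions of genes with low levels in untreated roots. *WRKY71*, a transcription factor of the WRKY family, was at 0.501, 0.224 and 0.208 CPM in the untreated libraries of batches 1, 2 and 3 and at 9.69, 6.83 and 6.02 CPM with CIF2 (log2 fold change 4.62 ± 0.29, adjusted p = 1.58e-15; errors of log2 fold changes are standard errors of the model). All 3 treated libraries stood more than 10 times above all 3 untreated ones. *PP2-B13*, annotated as a phloem protein, was at 0.193, 0.352 and 0.182 CPM without and 11.5, 17.07 and 8.26 CPM with the peptide (log2 fold change 5.603 ± 0.41, adjusted p = 1.16e-13), the largest change in this set. *WRKY30* went from 0.578, 0.639 and 0.625 CPM to 12.3, 7.99 and 5.82 CPM (log2 fold change 3.82 ± 0.37, adjusted p = 1.97e-10), with batch 1 highest among the treated libraries. The other 9 of the 12 most induced genes had log2 fold changes between 3.08 and 4.03. They were *MYB15*, the peroxidase genes *PER15* and *PER49*, the cytochrome P450 gene *CYP706A2*, the ubiquitin ligase gene *PUB21*, the mini zinc finger gene *MIF3*, the ankyrin repeat gene AT2G24600, the ATPase family gene AT3G28580 and AT1G47130, whose protein is uncharacterized.

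The 10 genes with the smallest p were all induced. AT1G47130 was at 1.66, 2.81 and 1.61 CPM untreated and at 19.1, 23.8 and 19 CPM with CIF2 (log2 fold change 3.36 ± 0.15, adjusted p = 1.64e-20). *FH8*, which encodes a formin, an actin nucleator, rose less but evenly, from 25.8, 18.9 and 20.8 CPM to 65.3, 54.04 and 56.6 CPM (log2 fold change 1.43 ± 0.084, adjusted p = 2.8e-16). AT3G56880, a VQ motif gene, was nearly constant within each arm, at 16.9, 16.2 and 16.1 CPM and 49.3, 54.4 and 48.7 CPM (log2 fold change 1.63 ± 0.11, adjusted p = 5.76e-15). The remaining 7 of these 10 were *PUB21*, AT5G35735, *MIF3*, AT3G15518, *WRKY71*, *PROPEP3* and *ABCG16*.

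**Figure D2:**
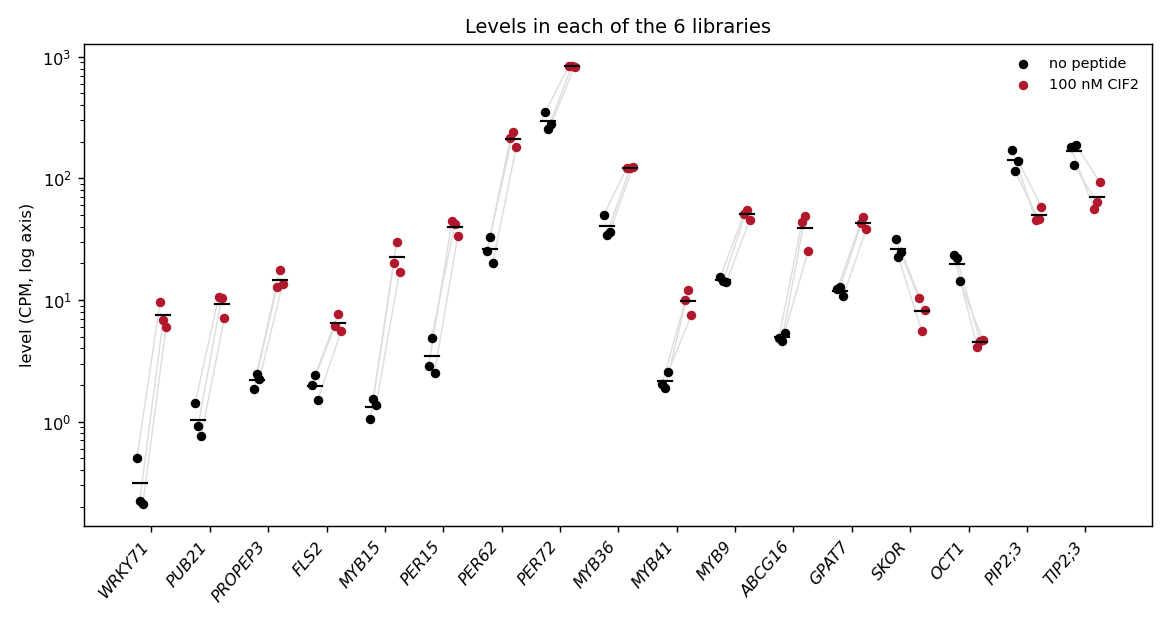
Level in CPM, on a log axis, of 17 called genes in each of the 3 untreated (black) and 3 CIF2 (red) libraries, with a grey line joining the libraries of a batch and a short bar at the mean of each arm. The arms do not overlap for any of the 17 genes, of which 13 were higher and 4, SKOR, OCT1, PIP2;3 and TIP2;3, were lower with CIF2.

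Transcripts of the receptor of the peptide rose, as did those of its relative. *GSO1*, the gene of the SGN3 receptor, was at 171, 126 and 135 CPM in untreated roots and at 289.9, 251 and 277 CPM with CIF2 (log2 fold change 0.93 ± 0.12, adjusted p = 4.41e-07), so the arms did not overlap but the change stayed just under the fold threshold. *GSO2*, its closest relative, rose from 12.4, 8.76 and 9.74 CPM to 25.9, 21.7 and 22.1 CPM (log2 fold change 1.18 ± 0.13, adjusted p = 9.98e-09). Among the NADPH oxidases, which make the superoxide used in lignin polymerization and signalling, *RBOHA* changed most, from 14.8, 12.1 and 10.8 CPM to 34.2, 26.8 and 26.97 CPM (log2 fold change 1.23 ± 0.13, adjusted p = 4.16e-09). *RBOHF*, the oxidase of the Casparian strip, had a log2 fold change of 0.27 (adjusted p = 0.00292) and *RBOHD* one of 0.37 (adjusted p = 0.0133). The co-receptor kinase genes *BAK1* and *SERK4* rose by 0.35 and 0.46 on the log2 scale (adjusted p = 2.93e-05 and 0.000179). In all, 7 of the 13 tested genes of the receptor and relay list rose and none fell (0 by edgeR, limma and DESeq2 and at an unadjusted p of 0.05), and the list had a median log2 fold change of 0.27. The CIF ligand genes, *TWS1* and *SGN1* were not matched to a gene by symbol and were not analysed here.

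*MYB36*, the transcription factor that switches on the Casparian strip programme, rose 3.04-fold, and its level was almost the same in the 3 treated libraries. It was at 50.2, 34.5 and 36.1 CPM without peptide and at 122, 121 and 125 CPM with it (log2 fold change 1.605 ± 0.14, adjusted p = 1.08e-11). *BHLH103* went from 26.9, 19.1 and 23.5 CPM to 68.1, 51.7 and 67.3 CPM (log2 fold change 1.43 ± 0.14, adjusted p = 2.02e-10), and *ZAT1*, a zinc finger gene, from 0.925, 0.895 and 0.9896 CPM to 3.65, 2.74 and 3.06 CPM (log2 fold change 1.74 ± 0.19, adjusted p = 6.18e-09). Other endodermal regulators moved the opposite way. *MYB74* fell from 10.5, 7.99 and 10.1 CPM to 3.26, 5.22 and 3.904 CPM (log2 fold change -1.200 ± 0.18, adjusted p = 4.17e-06), and *SCR*, which specifies the endodermal layer, *SCL3* and *NUC* had log2 fold changes of -0.19, -0.38 and -0.23 (adjusted p = 0.0251, 0.000483 and 0.0474). Of the 11 tested endodermal factors, 3 rose and 4 fell.

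The genes that build the Casparian strip responded unevenly. The peroxidase gene *PER72* was the only called gene among the 17 of the list and an abundant one, at 354, 257 and 282 CPM in untreated roots and 834, 843 and 833 CPM with CIF2 (log2 fold change 1.48 ± 0.11, adjusted p = 3.03e-13). *CASP4* rose from 61.1, 43.4 and 51.7 CPM to 89.1, 72.5 and 102 CPM (log2 fold change 0.74 ± 0.16, adjusted p = 0.0013). *CASP5* fell from 26.49, 20.01 and 33.3 CPM to 11.2, 11.9 and 19.2 CPM (log2 fold change -0.94 ± 0.16, adjusted p = 3.13e-05). *CASP1*, the most abundant of the family, was at 302, 204 and 246 CPM without and 249, 217 and 281 CPM with peptide (log2 fold change -0.02 ± 0.12, adjusted p = 0.956), and the values of the arms interleaved. *CASP2* and the strip peroxidase gene *PER64* had log2 fold changes of 0.35 and 0.17 and did not pass (adjusted p = 0.062 and 0.431). The dirigent protein genes *ESB1*, *DIR9*, *DIR16* and *DIR24*, which are needed to place lignin, rose by 0.45, 0.66, 0.41 and 0.38 on the log2 scale (adjusted p between 6.38e-05 and 0.0325). Over the list, 9 of 17 genes rose and 2, *CASP5* and *PER3*, fell, with a median log2 fold change of 0.38. In whole roots, more transcript in each endodermal cell and more cells that express a gene cannot be told apart.

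Among the lignin genes, *MYB15* and a few peroxidases changed strongly and the monomer pathway little. *MYB15*, known as the activator of lignin genes in immunity, was at 1.04, 1.53 and 1.38 CPM in the untreated libraries and 20.04, 30.01 and 17.11 CPM in the treated ones (log2 fold change 4.03 ± 0.299, adjusted p = 1.58e-13). *MYB14*, *MYB42* and *MYB63* rose by 0.82, 0.96 and 0.48 on the log2 scale. Of the 11 tested lignin MYB factors, 4 rose, 1 fell and 6 did not pass, among them *MYB46*, *MYB58* and *MYB85*. The 1 that fell was *MYB83*, which acts with *MYB46* in xylem, by 0.74 on the log2 scale (adjusted p = 0.000857). Class III peroxidases oxidize lignin monomers in the wall, and 5 of the 56 tested were called, all higher. *PER15* went from 2.89, 4.89 and 2.53 CPM to 44.5, 42.5 and 33.7 CPM (log2 fold change 3.54 ± 0.36, adjusted p = 5.15e-10). *PER49* went from 11.4, 17.2 and 10.4 CPM to 127, 128 and 97.8 CPM (log2 fold change 3.18 ± 0.37, adjusted p = 1.67e-08). *PER62* stood at 25.1, 33.1 and 20.3 CPM without and 215, 239.7 and 181 CPM with the peptide (log2 fold change 3.02 ± 0.21, adjusted p = 2.86e-14). *PER37*, the last called peroxidase beside *PER72*, rose by 1.08 on the log2 scale (adjusted p = 2.85e-09) and fell just under the fold threshold when CIF2 replicate 1 was left out. By the adjusted p alone, 14 peroxidase genes rose and 5 fell. AT5G15180 had the strongest decrease, from 55.05 to 32.4 CPM in the mean (log2 fold change -0.77 ± 0.15, adjusted p = 0.000181).

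Laccases are copper enzymes that also polymerize lignin. *LAC12* rose from 1.62, 2.85 and 2.27 CPM to 17.03, 14.6 and 6.897 CPM (log2 fold change 2.44 ± 0.299, adjusted p = 6.14e-08), with the treated library of batch 3 lowest of its arm. *LAC3*, *LAC5*, *LAC13* and *LAC16* rose by 0.700, 0.99, 0.77 and 0.86 on the log2 scale, and the other 11 tested laccases did not pass. In the synthesis of the monomers, 7 of 18 genes rose and none fell (0 by each of edgeR, limma and DESeq2 and at an unadjusted p of 0.05), but the shifts were small. *PAL2*, the entry enzyme of the phenylpropanoid pathway, went from 579, 467 and 469.5 CPM to 790.0, 793 and 719 CPM (log2 fold change 0.603 ± 0.062, adjusted p = 8.78e-10), and *C4H*, the next enzyme, rose by 0.43 on the log2 scale (adjusted p = 3.61e-06). *CCR2*, a cinnamoyl-CoA reductase gene, was the only called member, from 23.5 to 47.2 CPM in the mean (log2 fold change 1.01 ± 0.13, adjusted p = 1.69e-07), and its log2 fold change was 0.99 without CIF2 replicate 1, 0.95 without untreated replicate 2 and 0.94 without untreated replicate 3, under the fold threshold.

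Suberin genes rose as a broad group, regulators and enzymes alike. *MYB41*, a known activator of suberin synthesis, was at 2.04, 1.89 and 2.55 CPM in untreated roots and at 10.02, 11.98 and 7.48 CPM with CIF2 (log2 fold change 2.15 ± 0.25, adjusted p = 1.34e-08). *MYB9* went from 15.6, 14.4 and 14.1 CPM to 50.9, 55.3 and 45.4 CPM (log2 fold change 1.78 ± 0.12, adjusted p = 2.44e-14), and *MYB107*, its close relative, from 2.81, 3.196 and 3.59 CPM to 11.5, 11.8 and 9.17 CPM (log2 fold change 1.72 ± 0.18, adjusted p = 8.91e-10). *MYB39* went from 4.896, 5.18 and 3.802 CPM to 14.1, 13.96 and 8.91 CPM (log2 fold change 1.41 ± 0.12, adjusted p = 9.15e-12). *MYB93* rose by 0.85 on the log2 scale (adjusted p = 1.18e-05), which makes 5 of the 10 tested suberin regulators, 4 of them called, and none fell (0 by edgeR, limma and DESeq2 and at an unadjusted p of 0.05).

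Of the 27 tested genes on the list of suberin synthesis and export, 17 rose, 6 of them called, and *FAR3* fell by 0.57 on the log2 scale (adjusted p = 0.0408). The median of the list was 0.65, against -0.0027 for all genes. The transporter gene *ABCG16* had the largest change, from 4.86, 4.57 and 5.39 CPM to 44.2, 48.7 and 25.1 CPM (log2 fold change 2.96 ± 0.198, adjusted p = 9.5e-15). The acyltransferase gene *GPAT7* went from 12.2, 12.8 and 10.7 CPM to 42.8, 47.97 and 38.5 CPM (log2 fold change 1.86 ± 0.16, adjusted p = 1.34e-11), more than *GPAT5*, the better known suberin enzyme, which went from 60.5, 51.6 and 50.3 CPM to 74.04, 86.3 and 77.95 CPM (log2 fold change 0.56 ± 0.11, adjusted p = 0.000568). The fatty acid hydroxylase genes *CYP86A4*, *CYP86A8* and *CYP86B1* rose by 1.94, 1.07 and 1.103 on the log2 scale. *ASFT*, which adds ferulate to the polymer, rose by 1.06 (adjusted p = 5.15e-10). *CYP86A1*, the main hydroxylase of root suberin, had a log2 fold change of 0.17 and did not pass (adjusted p = 0.488).

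The list of pattern-triggered immunity genes had the highest share of induced members, 22 of 34 with 10 called, while 1 fell. Its members, like those of the other lists, were chosen with earlier results of these data known, so this rank is a description only. *PUB21*, a U-box ubiquitin ligase gene, was at 1.43, 0.927 and 0.755 CPM untreated and 10.5, 10.4 and 7.12 CPM with CIF2 (log2 fold change 3.19 ± 0.17, adjusted p = 8.77e-18). Its relatives *PUB20*, *PUB22*, *PUB23* and *PUB24*, of which the last 3 are known to dampen immune receptor signalling, rose by 1.12, 0.61, 1.25 and 0.61 on the log2 scale. The genes of the precursors of Pep danger peptides followed the same course. *PROPEP3* went from 1.85, 2.46 and 2.24 CPM to 12.8, 17.5 and 13.7 CPM (log2 fold change 2.73 ± 0.18, adjusted p = 5.76e-15), and *PROPEP2* and *PROPEP1* rose by 2.13 and 1.18 on the log2 scale.

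Receptors of microbial patterns were among the induced genes. *FLS2*, the receptor of bacterial flagellin, went from 2.005, 2.397 and 1.51 CPM to 6.17, 7.63 and 5.56 CPM (log2 fold change 1.72 ± 0.197, adjusted p = 1.34e-08), and *FRK1*, a kinase gene used as a marker of flagellin responses, from 14.5, 12.8 and 8.62 CPM to 36.02, 35.6 and 28.9 CPM (log2 fold change 1.503 ± 0.17, adjusted p = 1.73e-08). *CERK1*, *LYK4* and *LYK5*, which bind chitin, rose by 0.402, 0.57 and 0.66, and the receptor-associated kinase gene *BIK1* by 0.51 on the log2 scale. *ICS1*, the enzyme of salicylic acid synthesis, fell from 11.9, 12.7 and 11.8 CPM to 9.95, 8.81 and 9.79 CPM (log2 fold change -0.35 ± 0.098, adjusted p = 0.0145), although *SARD1*, a known activator of that gene, rose from 0.416 to 0.982 CPM in the mean (log2 fold change 1.27 ± 0.38, adjusted p = 0.022).

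WRKY transcription factors act downstream of such receptors. Of 59 tested, 20 rose, 8 of them called, and 2, *WRKY60* and *WRKY69*, fell by 0.54 and 0.28 on the log2 scale. Beside *WRKY71* and *WRKY30*, *WRKY53* went from 3.16, 3.13 and 3.85 CPM to 18.1, 22.1 and 16.5 CPM (log2 fold change 2.49 ± 0.205, adjusted p = 2.77e-12) and *WRKY28* from 1.35, 1.502 and 1.12 CPM to 7.05, 10.6 and 7.61 CPM (log2 fold change 2.67 ± 0.24, adjusted p = 5.12e-11). *WRKY41* had 1 read in the 3 untreated libraries together and between 0.553 and 1.34 CPM in the treated ones, a ratio of 45.4 with a 95% counting interval of 12.2 to 381 that covers counting error only. *WRKY15* and *WRKY48* rose by 1.23 and 1.28 on the log2 scale. *WRKY33*, a regulator of camalexin synthesis, rose by 0.93 (adjusted p = 7.1e-08). *WRKY40* was called at 1.22 (adjusted p = 0.0149), a call that was lost when CIF2 replicate 2 (adjusted p = 0.0895) or untreated replicate 3 (adjusted p = 0.0723) was left out.

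Most changes among the relay genes between receptor and nucleus were small in size. Of 49 tested genes of the MAP kinase cascade, 6 rose (12.2%, against 6.3% of all genes). Their log2 fold changes were from 0.27 to 0.64, the latter for *MAPKKK15* (adjusted p = 4.87e-05). Among 51 calcium sensors, 8 rose (15.7%) and 2 fell, where 4.28% of all genes fell. *CML12*, a touch-induced calmodulin-like gene, stood out at 27.02, 31.2 and 30.1 CPM untreated and 134, 126 and 110.2 CPM with CIF2 (log2 fold change 2.06 ± 0.19, adjusted p = 1.01e-10), and it was the only called gene among these 51. The calmodulin-like genes *CML30* and *CML45* were called as well but were not matched to the list, so its counts leave them out.

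**Figure D3:**
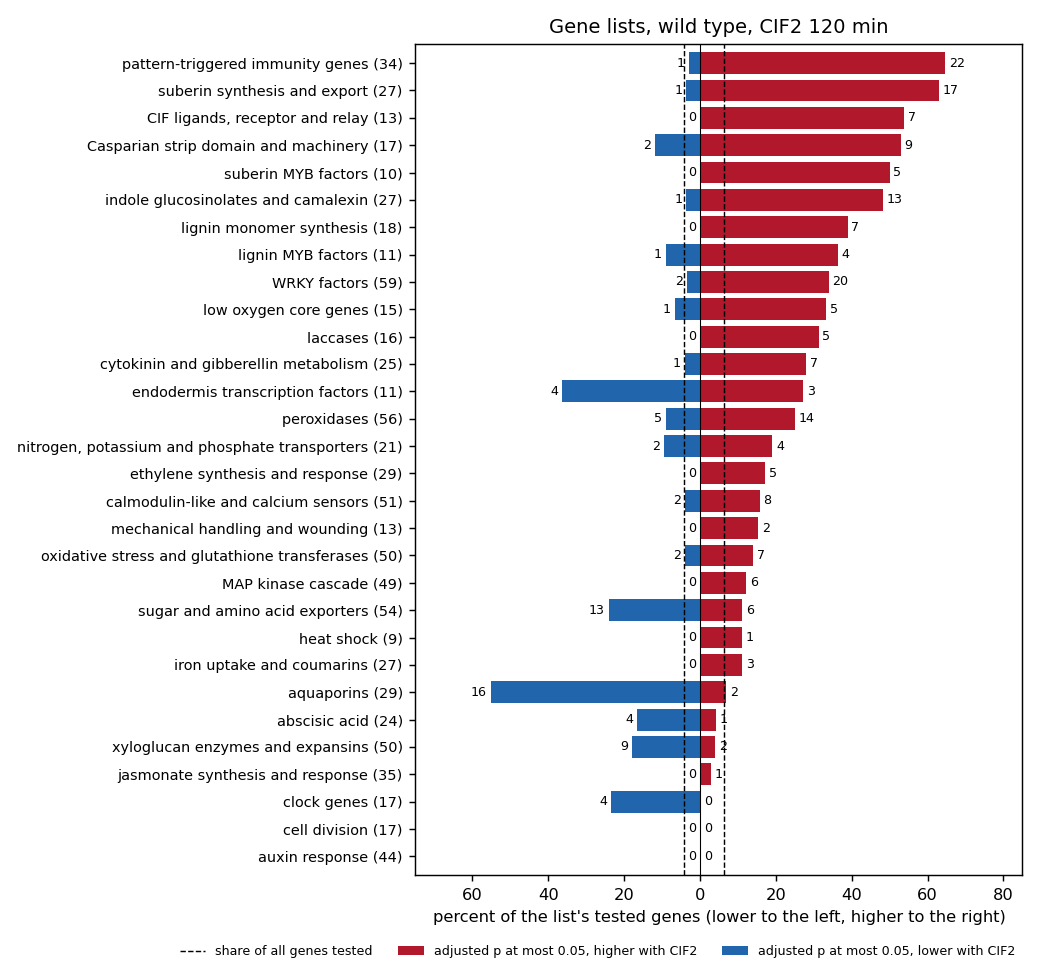
Share of the tested genes of each of 30 lists that passed the adjusted p of 0.05 and were higher (red, to the right) or lower (blue, to the left) with CIF2, with the number of such genes at each bar, the number tested in parentheses and dashed lines at the shares over all genes tested (6.3% higher and 4.28% lower). Immunity, suberin and receptor genes lie furthest to the right with 22 of 34, 17 of 27 and 7 of 13, aquaporins furthest to the left with 16 of 29, and auxin and cell division genes have no bar. The lists were made with earlier results of these data known.

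Indole glucosinolates are tryptophan-derived defence compounds of the mustard family, and 13 of 27 tested genes of their list, which includes camalexin genes, rose while *IGMT5* fell by 0.33 on the log2 scale. *MYB51*, their main regulator in defence, went from 21.2, 20.97 and 14.2 CPM to 45.3, 43.02 and 41.2 CPM (log2 fold change 1.22 ± 0.17, adjusted p = 1.62e-06). *CYP81F2*, which hydroxylates the indole ring, went from 13.3, 15.9 and 8.83 CPM to 65.4, 42.9 and 42.97 CPM (log2 fold change 2.02 ± 0.25, adjusted p = 1.11e-07), and *IGMT2*, a methyltransferase of the same pathway, from 32.3, 38.2 and 29.7 CPM to 202, 165 and 178 CPM (log2 fold change 2.45 ± 0.18, adjusted p = 1.99e-13). *IGMT2* and *IGMT4* are paralogs, as are the called glutathione transferase genes *GSTF6* and *GSTF7*, and reads that fit both members of a pair are not counted. The call of *GSTF7* was lost without replicate 3 of both arms (adjusted p = 0.0611). In the core pathway, *CYP83B1* and *SOT16* rose by 0.59 and 0.44 on the log2 scale. The relatives *CYP81F1*, *CYP81F3*, *CYP81F4* and *IGMT1* did not pass, with log2 fold changes of 0.17, -0.061, 0.047 and 0.55. In the list of iron and coumarin genes, 3 of 27 rose (11.1%, against 6.3% of all genes) and none fell (0 by edgeR, limma and DESeq2, 2 at an unadjusted p of 0.05). *CYP82C3* had no read in any untreated library and between 0.683 and 1.39 CPM with CIF2, at least 34.1-fold higher against a floor of 3 counts over the untreated group.

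The hormone lists differed in how many of their genes passed. The share that rose was 17.2% for ethylene and 28% for cytokinin and gibberellin genes, against 6.3% of all genes. It was 2.86% for jasmonate and 4.17% for abscisic acid genes. Of all genes, 4.28% fell. None of 44 tested auxin response genes passed by edgeR (0 by limma, 1 by DESeq2, and 6 at an unadjusted p of 0.05), and of 35 jasmonate genes only the repressor gene *JAZ1* did, with 124, 102 and 89.8 CPM untreated and 135, 158 and 136 CPM treated (log2 fold change 0.45 ± 0.12, adjusted p = 0.0131). Of 29 ethylene genes, 5 rose and none fell (0 by edgeR, limma and DESeq2 and at an unadjusted p of 0.05). The strongest was *ACS7*, which makes the ethylene precursor, from 19.3, 19.6 and 16.3 CPM to 35.7, 48.5 and 45.4 CPM (log2 fold change 1.23 ± 0.12, adjusted p = 2.6e-10). Of 25 genes of cytokinin and gibberellin metabolism, 7 rose and 1 fell. The cytokinin oxidase gene *CKX4* went from 1.504, 1.34 and 1.59 CPM to 5.22, 5.45 and 3.29 CPM (log2 fold change 1.59 ± 0.25, adjusted p = 9.41e-06) with *CKX1* and *CKX6* at 0.72 and 0.78, and the gibberellin oxidase gene *GA2OX6* from 21.6, 20.6 and 18.02 CPM to 34.1, 48.99 and 38.3 CPM (log2 fold change 1.01 ± 0.15, adjusted p = 3.76e-06). The change of *GA2OX6* lay just under the fold threshold when CIF2 replicate 2 (0.87) or untreated replicate 3 (0.91) was left out. Of the 24 abscisic acid genes, 4 fell and 1, *AAO3*, rose. *RD29A*, a gene induced by drought and abscisic acid, fell from 188, 162 and 200.2 CPM to 63.1, 123 and 65.3 CPM (log2 fold change -1.14 ± 0.17, adjusted p = 4.17e-06) and was under the fold threshold without CIF2 replicate 1 (-0.99) or 3 (-0.99). *NCED9*, of abscisic acid synthesis, had 0.783 and 0.316 CPM in the mean (adjusted p = 0.035) and lost its call in 3 of the 6 single-library omissions, with adjusted p up to 0.32 without untreated replicate 1. *ABA1*, of the same pathway, fell by 0.63 on the log2 scale (adjusted p = 2.84e-06).

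Among transport genes, the aquaporins and the list of sugar and amino acid exporters had more members that fell than rose. Aquaporins are water channels, of the plasma membrane in the PIP group and of the vacuole in the TIP group, and 16 of 29 tested fell while 2 rose. The list had the lowest median, -0.43. *PIP2;3* fell from 173, 114 and 138 CPM to 45.8, 46.02 and 58.7 CPM (log2 fold change -1.49 ± 0.13, adjusted p = 5.23e-12), and *TIP2;3* from 183, 129.8 and 187 CPM to 55.96, 63.9 and 92.8 CPM (log2 fold change -1.25 ± 0.202, adjusted p = 1.56e-05). The most abundant members fell by smaller factors. *PIP2;1* went from 1660.0, 1313 and 1548 CPM to 721, 775 and 926 CPM (log2 fold change -0.903 ± 0.087, adjusted p = 1.86e-10), *PIP1;1* and *PIP2;2* had log2 fold changes of -0.88 and -0.96, and the vacuolar *TIP1;1* and *TIP1;2* of -0.56 and -0.59. The 2 that rose were *NIP4;2*, from 1.15 to 2.81 CPM in the mean (log2 fold change 1.31 ± 0.25, adjusted p = 0.000164), and the boric acid channel gene *NIP5;1* (log2 fold change 0.24, adjusted p = 0.0122).

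*SKOR*, the channel that releases potassium into the xylem, fell from 31.8, 22.5 and 24.8 CPM to 10.3, 5.58 and 8.26 CPM (log2 fold change -1.71 ± 0.15, adjusted p = 4.04e-11). *OCT1*, annotated as an organic cation and carnitine transporter, had the largest decrease among genes of at least 5 CPM, from 23.3, 22.02 and 14.3 CPM to 4.14, 4.59 and 4.68 CPM (log2 fold change -2.12 ± 0.41, adjusted p = 0.000259). Exporters of amino acids and sugars were lowered as well. Of 54 tested transporters of this list, 13 fell and 6 rose, and all 13 were UMAMIT or SWEET genes, the families that let amino acids and sugars leave the cell. *UMAMIT14* went from 83.9, 95.9 and 76.9 CPM to 46.1, 35.3 and 49.3 CPM (log2 fold change -0.98 ± 0.14, adjusted p = 1.73e-06). *SWEET1* went from 1.04, 1.18 and 1.02 CPM to 0.392, 0.429 and 0.325 CPM (log2 fold change -1.49 ± 0.39, adjusted p = 0.00814), and did not pass without CIF2 replicate 3 (adjusted p = 0.0504). *UMAMIT33* went from 77.9 to 38.4 CPM in the mean (log2 fold change -1.04 ± 0.16, adjusted p = 6.98e-06), under the fold threshold without CIF2 replicate 1 (-0.95) or untreated replicate 1 (-0.86). The 6 that rose were uptake carriers, among them *LHT1*, a high-affinity amino acid importer, from 109, 105 and 92.4 CPM to 226, 283 and 229 CPM (log2 fold change 1.26 ± 0.15, adjusted p = 2.18e-08), and *AAP3* (log2 fold change 1.098 ± 0.18, adjusted p = 2.5e-05). Of 21 tested nutrient transporters, 4 rose (19%) and 2, *SKOR* and AMT1;2, fell. The nitrate uptake genes *NAR2.1* and *NRT2.1* rose by 0.76 and 1.48 on the log2 scale (adjusted p = 1.9e-05 and 0.0078). The change of *NRT2.1* did not pass when untreated replicate 1 was left out (adjusted p = 0.0983). The ammonium transporter gene AMT1;2 fell by 0.71 (adjusted p = 0.000147).

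Of 50 genes of cell wall loosening, 9 fell and 2 rose, but the 2 changed most. *XTH20*, a xyloglucan enzyme gene, rose from 15, 17.7 and 17.9 CPM to 52.8, 71.2 and 44.8 CPM (log2 fold change 1.74 ± 0.15, adjusted p = 8.29e-12), and the expansin-like gene *EXLA3* from 1.04, 1.05 and 0.729 CPM to 8.03, 7.33 and 6.64 CPM (log2 fold change 2.97 ± 0.22, adjusted p = 1.99e-13). The 9 that fell, 8 XTH genes and *EXPB1*, had log2 fold changes between -0.72 and -0.29. Of 17 cell division genes none passed (0 by edgeR, limma and DESeq2 and at an unadjusted p of 0.05). The lists that would show uneven handling of the arms had, in at least 1 direction, a larger share of genes that passed than the 6.3% higher and 4.28% lower of all genes. Of 13 genes of touch and wounding, 2 rose (15.4%), *CML12* and *WRKY40*, and of 9 heat shock genes 1 did (11.1%), *HSP17.6II* at 0.311 and 0.9496 CPM in the mean (adjusted p = 0.0148), a call that limma did not make (adjusted p = 0.0694) and that was lost without CIF2 replicate 2 (adjusted p = 0.136) or untreated replicate 3 (adjusted p = 0.214). Of 15 low oxygen genes 5 rose (33.3%) and 1 fell, of 50 genes of oxidative stress and glutathione transfer 7 rose (14%) and 2 fell, and of 17 clock genes 4 fell. The part of handling in the changes was not tested. *COL1* and *COL2*, 2 of the 4, were below 1 CPM in the mean and lost their calls in 3 and 4 of the 6 single-library omissions (adjusted p up to 0.144 for *COL1* and up to 0.169 for *COL2*). The others, *CCA1* and *LHY*, had log2 fold changes of -0.74 and -0.64 (adjusted p = 0.00671 and 0.036), and the part of the time of harvest in this was not tested.

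Markers of the tissues of the root were measured to compare the makeup of the arms. The summed level of 8 root hair markers was 935.8 to 1180.0 CPM without and 891 to 1073 CPM with CIF2, that of 8 xylem markers 503 to 560.4 CPM and 499.5 to 520.3 CPM, and that of 6 phloem markers 108 to 137 CPM and 112 to 141 CPM. No marker of these tissues, of non-hair epidermis, cortex, root cap or stem cell niche passed (0 by edgeR, limma and DESeq2, with 2 at an unadjusted p of 0.05 among 40 genes), and in the stele list *SKOR* alone did. Of 10 endodermis markers 5 rose, among them *MYB36*, *GSO1*, *CASP4* and *ESB1*, and 2 fell, and their summed level was 985.5 to 1422 CPM without and 1401 to 1765 CPM with CIF2, ranges that just overlap. The photosynthesis markers of the shoot summed to 14.3 to 20.9 CPM and 15.7 to 16.6 CPM, so green tissue was nearly absent from both arms. The part of cell type shares in the changes was not tested.

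Promoters of the induced genes were read from the RefSeq genome TAIR10.1 for the W-box, the site that WRKY factors bind. The core was searched as TTGACC or TTGACT on both strands in the window from 250 bases before to 50 bases after the annotated start. It was present in 63.3% of the promoters of the 245 called genes that rose, in 28.3% of those of the 46 that fell and in 33.3% of 19657 tested genes with a promoter. At least 2 cores were present in 29.4%, 2.17% and 7.95% of the promoters of these groups. By size of the induction, the share was 57.9% of the 183 genes that changed by 2 to 4 times, 84.2% of the 38 that changed by 4 to 8 times and 70.8% of the 24 that changed more. With the 250 bases before the start alone the shares were 60%, 21.7% and 28.9%. The G-box CACGTG was in 4.49% of the induced, 13% of the repressed and 8.65% of all promoters, and the GCC-box GCCGCC in 2.45%, 2.17% and 2.66%. A match is a string of letters and not a measured binding site.

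**Figure D4:**
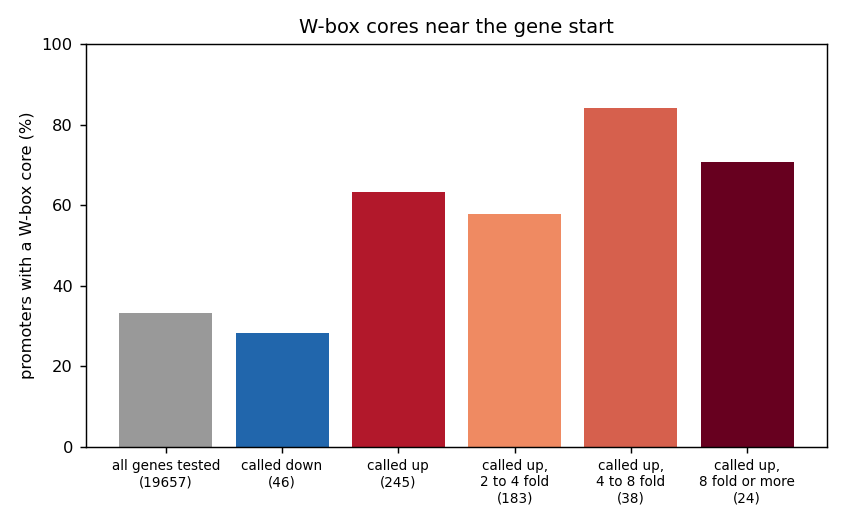
Percent of promoters that hold TTGACC or TTGACT on either strand between 250 bases before and 50 bases after the gene start, for all tested genes, the called genes that fell, the called genes that rose and the latter by the size of their induction, with the number of promoters under each bar. The induced genes stand at 63.3% against 33.3% for all genes, and the highest share, 84.2%, is that of genes induced by 4 to 8 times.

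The 250 bases before the start are shown for 5 strongly induced genes of different roles, a danger peptide precursor, a WRKY factor, a peroxidase, a suberin transporter and the lignin regulator. W-box cores are in capitals, read 5′ to 3′ on the strand of the gene, so that a core on the other strand appears as GGTCAA or AGTCAA. *PROPEP3* (chr5:25939312-25939561, plus strand) holds 4 cores, *WRKY30* (chr5:8154711-8154960, minus strand) 3, *PER49* (chr4:17206034-17206283, minus strand) 2 and *ABCG16* (chr3:20418911-20419160, minus strand) 1. *MYB15* (chr3:8308959-8309208, plus strand), although its log2 fold change was larger than those of the other 4, holds 0 in this window.
PROPEP3: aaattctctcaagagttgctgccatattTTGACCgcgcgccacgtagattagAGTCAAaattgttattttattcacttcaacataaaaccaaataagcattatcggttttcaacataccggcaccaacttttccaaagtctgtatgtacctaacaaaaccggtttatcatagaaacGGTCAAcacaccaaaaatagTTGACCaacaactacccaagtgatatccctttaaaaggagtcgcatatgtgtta
WRKY30: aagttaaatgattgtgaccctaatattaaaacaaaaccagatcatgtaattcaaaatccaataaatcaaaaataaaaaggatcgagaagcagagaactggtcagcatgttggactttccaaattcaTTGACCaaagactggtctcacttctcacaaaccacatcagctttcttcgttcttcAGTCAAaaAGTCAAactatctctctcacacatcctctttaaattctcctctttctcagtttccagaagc
PER49: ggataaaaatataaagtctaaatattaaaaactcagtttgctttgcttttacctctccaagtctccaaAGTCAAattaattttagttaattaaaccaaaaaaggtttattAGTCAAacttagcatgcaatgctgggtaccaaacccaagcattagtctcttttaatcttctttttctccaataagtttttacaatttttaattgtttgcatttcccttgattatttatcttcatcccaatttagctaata
ABCG16: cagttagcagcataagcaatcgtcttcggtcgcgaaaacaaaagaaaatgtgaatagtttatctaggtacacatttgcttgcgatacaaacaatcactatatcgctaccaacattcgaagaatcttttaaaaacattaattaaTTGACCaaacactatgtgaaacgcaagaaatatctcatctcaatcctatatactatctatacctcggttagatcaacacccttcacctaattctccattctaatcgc
MYB15: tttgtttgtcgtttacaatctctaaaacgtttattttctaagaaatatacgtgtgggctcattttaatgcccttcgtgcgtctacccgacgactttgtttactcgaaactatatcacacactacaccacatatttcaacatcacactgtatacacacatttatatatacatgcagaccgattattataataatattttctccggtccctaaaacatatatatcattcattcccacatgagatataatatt

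The response at 120 min was compared with those at 30 and 480 min of the same genotype, each with its own 3 untreated libraries. The test of the difference of 2 effects passed for 418 genes between 120 and 30 min (2.13% of those tested, 198 or 1.01% with the higher and 220 or 1.12% with the lower effect at 120 min) and for 511 genes between 480 and 120 min (2.6%, 368 or 1.87% higher and 143 or 0.727% lower at 480 min). When the libraries of 1 batch were left out, the counts were 151 to 263 and 299 to 516. Of the 245 genes called higher at 120 min, 150 had passed in the same direction at 30 min and 185 did at 480 min, where 5.78% and 6.88% of all genes tested did so, and 1, *MYB39*, passed in the other direction at 480 min. Of the 46 called lower, 10 had passed at 30 min and 21 did at 480 min, against 2.01% and 3.24% of all genes. The called genes were chosen by an effect that is also 1 term of each difference, which favours differences away from 0 among them.

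Effects at 30 min differed from those at 120 min in both directions. *ICS1* was raised at 30 min (log2 fold change 0.96) and lowered at 120 min (-0.35; difference -1.304 ± 0.13, adjusted p = 3.79e-08). *NUDT7*, a hydrolase gene, and *APS3*, a sulfate assimilation gene, were up at 30 min (1.24 and 1.47) and had returned to 0.12 and 0.016 by 120 min (differences -1.12 ± 0.12, adjusted p = 3.79e-08, and -1.46 ± 0.19, adjusted p = 5.61e-06). In the other direction, the fatty acid hydroxylase gene *CYP86A4* had an effect of 0.301 at 30 min and 1.94 at 120 min (difference 1.64 ± 0.28, adjusted p = 0.000299). *MYB9* moved from 0.58 to 1.78 (difference 1.198 ± 0.17, adjusted p = 2e-05), and *PER72* from 0.38 to 1.48 (difference 1.105 ± 0.16, adjusted p = 2e-05). *WRKY53* had an effect of 0.42 at 30 min and 2.49 at 120 min (difference 2.08 ± 0.28, adjusted p = 1.01e-05). The metalloproteinase gene 4MMP and the cytochrome P450 gene *CYP87A2* had effects near 0 at 30 min (0.035 and -0.12) and of 1.55 and 0.95 at 120 min (differences 1.52 ± 0.19, adjusted p = 5.61e-06, and 1.07 ± 0.14, adjusted p = 5.61e-06). The decrease of transport genes was likewise larger at 120 min, for *PIP2;3* by -0.95 ± 0.17, adjusted p = 0.000629, and for *SKOR* by -1.002 ± 0.22, adjusted p = 0.00632. These 2 differences did not pass without replicate 1 (*PIP2;3*, adjusted p = 0.224) and without replicate 2 (*SKOR*, adjusted p = 0.0943) of the 4 groups.

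For several regulators the effect was smaller at 480 min than at 120 min. *MYB39* turned from a log2 fold change of 0.57 at 30 min and 1.41 at 120 min to -0.79 at 480 min (difference between 480 and 120 min -2.199 ± 0.18, adjusted p = 2.8e-11). Its mean level was 6.49 ± 0.116 CPM without and 3.75 ± 0.1901 CPM with CIF2 at 480 min (SD, n = 3), where the treated roots held less than the untreated ones. *ZAT1* had effects of 0.19, 1.74 and 0.19 at the 3 times (difference between 480 and 120 min -1.55 ± 0.28, adjusted p = 0.000306), with an untreated level of 0.937 ± 0.0483 CPM at 120 min and 1.81 ± 0.286 CPM at 30 min. *MYB41* had effects of 0.75, 2.15 and 0.93 (difference -1.22 ± 0.32, adjusted p = 0.0253), a difference that did not pass without replicate 1 (adjusted p = 0.0966) or 2 (adjusted p = 0.381). *MYB36* declined to 0.63 (difference -0.98 ± 0.199, adjusted p = 0.00151; adjusted p = 0.0819 without replicate 3). *XTH20* and *CKX4* fell back to 0.57 and -0.091 (differences -1.16 ± 0.203, adjusted p = 0.00019, and -1.69 ± 0.31, adjusted p = 0.000458; the latter adjusted p = 0.0906 without replicate 2), and *PROPEP3* to 0.92 (difference -1.82 ± 0.28, adjusted p = 1.96e-05).

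The effect on 2 laccases was larger at 480 min than at 120 min. *LAC12* had effects of 0.503, 2.44 and 4.43 at 30, 120 and 480 min (difference between 480 and 120 min 1.99 ± 0.44, adjusted p = 0.00453; adjusted p = 0.211 without replicate 3) and *LAC13* of -0.18, 0.77 and 3.12 (difference 2.35 ± 0.19, adjusted p = 2.73e-11). AT5G55180, a glycosyl hydrolase gene, likewise went from 0.77 to 2.54 (difference 1.77 ± 0.16, adjusted p = 1.31e-10). Effects of small size at 120 min that were strongly negative at 480 min were those on *GLIP2*, a lipase gene, from -0.54 to -4.01 (difference -3.46 ± 0.25, adjusted p = 1.6e-12), and on the peroxidase gene *PER32*, from -0.23 to -1.57 (difference -1.33 ± 0.11, adjusted p = 3.97e-11). *OCT1*, lower with CIF2 at 120 min, had effects of -0.038 and 0.32 at 30 and 480 min (difference between 480 and 120 min 2.44 ± 0.599, adjusted p = 0.0131, which did not pass when any of the 3 batches was left out, with adjusted p between 0.0536 and 0.0629). Its untreated level was 10.06 ± 3.901, 19.9 ± 4.88 and 6.17 ± 4.23 CPM at 30, 120 and 480 min and its treated level 9.83 ± 3.15, 4.47 ± 0.288 and 7.31 ± 4.28 CPM, so the untreated roots at 120 min were the highest.

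**Figure D5:**
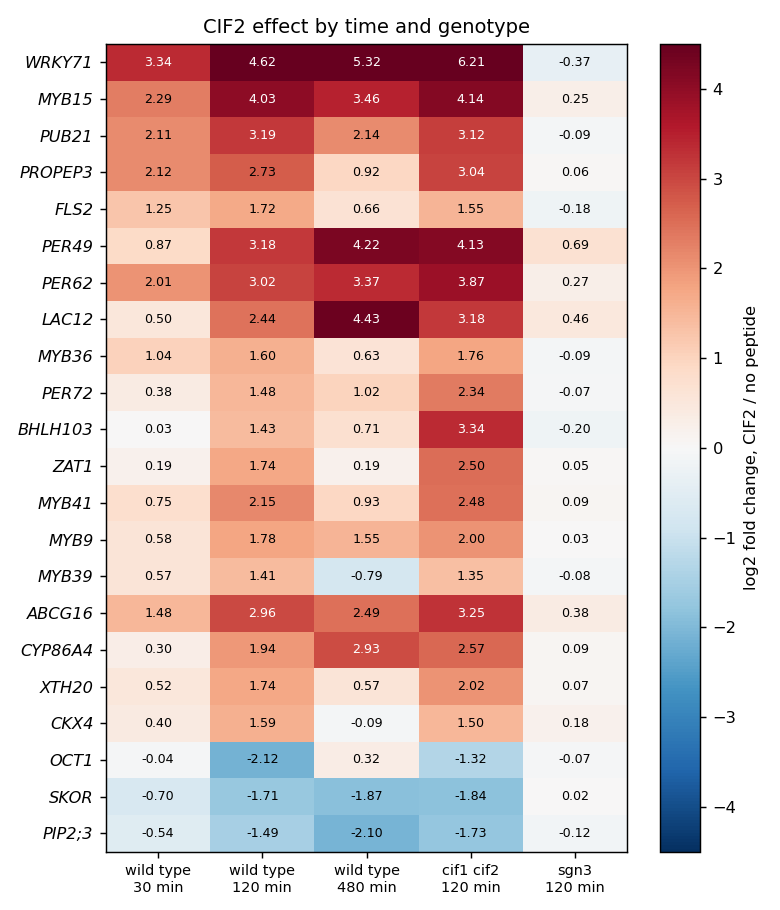
Log2 fold change with CIF2 of 22 called genes in wild type at 30, 120 and 480 min and in *cif1 cif2* and *sgn3* at 120 min, from red (higher) to blue (lower), with the value in each cell. In *sgn3* no value reaches 1 in size, MYB39 changes sign at 480 min, and BHLH103 is higher in *cif1 cif2*, at 3.34, than in wild type, at 1.43.

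In *sgn3* roots, no gene passed the test for a response to CIF2 at 120 min. In *sgn3*, 0 of 19668 genes passed by edgeR, limma or DESeq2, with 578 genes at an unadjusted p under 0.05 in edgeR, and the 245 genes induced in wild type had a median log2 fold change of 0.08 and the 46 repressed ones of -0.13. The difference between *sgn3* and wild type was tested directly and passed for 629 genes (3.2%), of which 164 (0.834%) had the higher and 465 (2.36%) the lower effect in *sgn3*, and for 277 to 395 genes when the libraries of 1 batch were left out. *MYB15* had a log2 fold change of 0.25 in *sgn3* against 4.03 in wild type (difference -3.78 ± 0.596, adjusted p = 3.41e-05), and *MYB36* of -0.086 against 1.605 (difference -1.69 ± 0.197, adjusted p = 1.27e-07). The genes that fell differed likewise, *SKOR* with 0.016 against -1.71 (difference 1.72 ± 0.21, adjusted p = 3.27e-07) and *PIP2;3* with -0.12 against -1.49 (difference 1.37 ± 0.17, adjusted p = 7.25e-07). The 5 smallest p-values of this difference were those of AT1G47130, *FH8*, *PUB21*, AT5G35735 and *IQD23*, a calmodulin-binding protein gene, with differences of -3.41, -1.49, -3.28, -1.76 and -0.98.

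In *cif1 cif2*, in which both peptide genes are mutated, most genes that responded in wild type responded too, and the differences that passed were towards a larger effect. Of the 245 genes induced in wild type, 229 passed in the same direction in *cif1 cif2*, against 7.44% of all genes, with a median log2 fold change of 1.603 there and 1.43 in wild type. Of the 46 repressed genes, 30 did, against 6.23% of all genes. The difference passed for 57 genes (0.29%), all 57 with the higher effect in *cif1 cif2* and 0 with the lower one by edgeR, limma and DESeq2 (427 with the lower one at an unadjusted p under 0.05), and for 32 genes without batch 1 and 7 genes with the 12 libraries of the comparison alone. *CASP4* rose by 4.35 in *cif1 cif2* against 0.74 in wild type (difference 3.62 ± 0.25, adjusted p = 4.89e-13). The untreated mutant held 6.38 ± 1.42 CPM of this gene and untreated wild type 52.05 ± 8.84 CPM, while the treated roots held 128 ± 1.48 and 87.8 ± 14.6 CPM (SD, n = 3), so the mutant was below wild type without peptide and above it with peptide. *BHLH103* showed the same order, with 10.2 ± 3.12 and 23.2 ± 3.94 CPM untreated and 103 ± 9.65 and 62.4 ± 9.25 CPM treated (difference of effects 1.91 ± 0.201, adjusted p = 7.37e-08). *FH8*, *PER72*, AT4G02090, annotated as an ABC transporter family gene, and AT1G71740 had differences of 1.01, 0.86, 1.59 and 1.65 on the log2 scale, and that of *PER72* did not pass without replicate 1 (adjusted p = 0.168) or with the libraries of the comparison alone (adjusted p = 0.382), nor did that of AT4G02090 in the latter setting (adjusted p = 0.0929).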

How the data were processed

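Gene counts were deposited by the authors, 1 value per gene and library, as raw whole counts of htseq-count with no scaling. Per the submitters' processing notes and the study's methods, adaptors were trimmed with Cutadapt (version 1.8), ribosomal and low-complexity reads were removed, and the reads of stranded mRNA libraries were aligned to TAIR10 with STAR (version 2.5.3a) and counted with HTSeq (version 0.9.1). A read that fits several genes is not counted in this way, which lowers near-identical paralogs. The 5 tally lines, 4.81% to 4.91% of the reads in the 6 libraries, stayed out of totals and tests.

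All 54 libraries, in 18 groups with the batch as a block, were fitted with edgeR 4.0.16 (R 4.3.3) after TMM scaling, for the 19668 of 34262 genes that reached 1 CPM in any library, and p-values were adjusted over all of these by Benjamini and Hochberg. Standard errors were taken as the log2 fold change over the square root of F. The study's own methods used limma with the batch term. The pairing comes from the batch number in the labels. Deviations from the group means correlated at 0.144, 0.212 and 0.291 within a batch and at -0.175 to -0.000557 across batches. Replicates differed by 7.67 to 33.5 times the sampling noise (chi-square over degrees of freedom), so each library was counted as a separate sample.

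Alternatives were limma-trend 3.58.1, DESeq2 1.42.0, other scaling, filters, thresholds and sets of libraries, no block, and each batch or library left out. The procedure was also run on simulated data that took their spread from the fitted model and held no batch differences. Such a run cannot check the batch block or the calls in these data. Named genes are the 12 called genes with the highest and the 12 with the lowest log2 fold change at 5 CPM or more and changed alike in 3 batches, the 10 of smallest p, up to 5 in each direction of each list, list-defining genes, the 5 of smallest p for each difference and genes of the study's text. The gene lists and these choices were made with earlier results of these data known, and 19 of the differences named for single genes were chosen after their values were seen. Promoters were read from the RefSeq TAIR10.1 genome in place of a ready-made table.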

Additional observations from a re-analysis of the deposited data

Results flagged for a closer look

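Each gene below had an effect of CIF2 at 120 min in wild type that differed from the effect at another time or in a mutant when the difference was tested in the edgeR model, and the difference is given on the log2 scale. In *cif1 cif2* the effect was larger than in wild type for *CASP4* by 3.62, for *BHLH103* by 1.91, for AT1G71740 by 1.65, for AT4G02090 by 1.59, for *FH8* by 1.01 and for *PER72* by 0.86.

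In *sgn3* the effect differed from wild type by -3.78 for *MYB15*, -3.41 for AT1G47130, -3.28 for *PUB21*, -1.76 for AT5G35735, -1.69 for *MYB36*, -1.49 for *FH8* and -0.98 for *IQD23*, all induced in wild type, and by 1.72 for *SKOR* and 1.37 for *PIP2;3*, both lower with CIF2 in wild type.

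The effect at 120 min exceeded that at 30 min by 2.08 for *WRKY53*, 1.64 for *CYP86A4*, 1.52 for 4MMP, 1.198 for *MYB9*, 1.105 for *PER72* and 1.07 for *CYP87A2*. It differed by -1.46 for *APS3*, -1.304 for *ICS1*, -1.12 for *NUDT7*, -1.002 for *SKOR* and -0.95 for *PIP2;3*.

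The effect at 480 min exceeded that at 120 min by 2.44 for *OCT1*, 2.35 for *LAC13*, 1.99 for *LAC12* and 1.77 for AT5G55180. It differed by -3.46 for *GLIP2*, -2.199 for *MYB39*, -1.82 for *PROPEP3*, -1.69 for *CKX4*, -1.55 for *ZAT1*, -1.33 for *PER32*, -1.22 for *MYB41*, -1.16 for *XTH20* and -0.98 for *MYB36*.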

How the results depend on the processing

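Of the 83 called genes that the naming rule selects, 65 were called under every alternative run and 18 were not, with 60 lost calls and 0 changes of direction in 1408 checks. Of the 291 calls, limma made 268, DESeq2 284, the model without the block 273 and the model of the 6 libraries alone 240, and 190 were kept when each of the 6 libraries was left out in turn. Without the fold threshold 2080 genes passed, 1239 higher and 841 lower. With the 6 libraries alone 30 genes were called lower. When a batch or library was left out, 252 to 328 genes were called, 209 to 295 higher and 28 to 50 lower. Without the replicate block the comparison gave 274 calls, 233 higher and 41 lower, and *HSP17.6II*, *NCED9* and *NRT2.1* were lost. Without the block the difference between *sgn3* and wild type passed for 367 genes (72 higher, 295 lower), that between 120 and 30 min for 194 (106 and 88) and that between 480 and 120 min for 295 (234 and 61), where *OCT1* was lost (adjusted p = 0.236). At an adjusted p of 0.01 these were 350 (66 and 284), 196 (111 and 85) and 293 (232 and 61). With the libraries of the comparison alone, 7 genes differed between *cif1 cif2* and wild type, all 7 higher, and 238 (168 and 70) between 480 and 120 min. With a batch left out, the counts ranged over 277 to 395 for *sgn3* (33 to 94 higher, 195 to 362 lower), 32 to 44 for *cif1 cif2* (32 to 44 higher, 0 to 1 lower), 151 to 263 for 120 against 30 min (72 to 144 higher, 57 to 163 lower) and 299 to 516 for 480 against 120 min (151 to 439 higher, 77 to 148 lower). Fewer samples or a stricter threshold enter some of these settings by construction, while the model without the block kept all libraries and the same threshold. The cause of the moved counts was not tested. In the 250 bases before the start alone, 28.9% of all promoters held a W-box core. *COL1*, *COL2*, *SWEET1* and *NCED9*, which lost calls, had means near or under 1 CPM, and the part of depth in this was not tested. *CYP82C3* and *WRKY41*, at like levels but with larger changes, kept their calls in every alternative.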
